A study of Homo sapiens with 11 samples.

Results

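The transcripts of 9 chemokine genes, CXCL1, CXCL2, CXCL3, CXCL8, CXCL10, CXCL11, CCL2, CCL5 and CX3CL1, were followed in xenografts of A375, a melanoma line of human origin with a mutant BRAF kinase, growing under the skin of female CD1 athymic mice. All 12 probes annotated to these genes were taken, out of 47323 on the array (9 of 20046 genes with a named probe), and each probe was read on its own. The question was how the messages that draw leukocytes into a tumour respond to a BRAF inhibitor, to an antibody against VEGF, and to both. COMBO tumours (2 arrays) had 12 days of PLX4720, a BRAF kinase inhibitor given by gavage at 60 mg/kg each day, together with bevacizumab, an antibody that binds human VEGF, injected into the peritoneum at 10 mg/kg 3 times a week. The PLX4720 arm (3 arrays) and the bevacizumab arm (3 arrays) had 1 drug at the same dose, and the vehicle arm (3 arrays) had 1% methylcellulose. Mice were implanted at 6 weeks of age, every tumour came from the same cell line, and the methods describe the replicates as biological. Athymic mice lack mature T cells and keep myeloid cells.

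Chemokines are small secreted proteins that bind receptors on leukocytes and direct where those cells move. CXCL1, CXCL2, CXCL3 and CXCL8 act through CXCR2 and draw neutrophils, and melanoma cells are known to make CXCL1 and CXCL8. CXCL10 and CXCL11 are induced by interferons and bind CXCR3 on activated T cells and natural killer cells, CCL2 draws monocytes through CCR2, CCL5 draws T cells, monocytes and eosinophils, and CX3CL1 is held at the cell surface and is the ligand of CX3CR1. Their genes are switched on by inflammatory signals, many of them through the transcription factor NF-kB. Mice have no gene for CXCL8.

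Of the genes, 6 lie on chromosome 4, in the order CXCL8, CXCL1, CXCL3, CXCL2 and then CXCL10 and CXCL11. Only other chemokine genes (CXCL6, PF4V1, PF4, PPBP and CXCL5) were listed between CXCL8 and CXCL2. CCL2 and CCL5 are on chromosome 17 and CX3CL1 is on chromosome 16. RefSeq promoter sequence (assembly GRCh38.p14) was matched for these 6 of the 9 genes, and the stretch next to the transcription start is printed to show which regulatory letters these genes share. CXCL1 (chr4:73869293-73869392) and CXCL8 (chr4:73740419-73740568) read on the plus strand, and CXCL2 (chr4:74099196-74099295), CXCL3 (chr4:74038690-74038789), CXCL10 (chr4:76023498-76023747) and CXCL11 (chr4:76036071-76036170) on the minus strand. Each run ends at the base before the start. Capitals mark matches to GGNNNTTCC (NF-kB type), TGANTCA (AP-1) or to GAAA and GAAA with any 2 bases between them (interferon response element type), searched on both strands.
CXCL1: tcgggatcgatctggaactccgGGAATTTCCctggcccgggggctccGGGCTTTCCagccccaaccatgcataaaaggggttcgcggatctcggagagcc
CXCL2: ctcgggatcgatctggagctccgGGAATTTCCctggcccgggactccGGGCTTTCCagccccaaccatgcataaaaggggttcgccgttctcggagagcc
CXCL3: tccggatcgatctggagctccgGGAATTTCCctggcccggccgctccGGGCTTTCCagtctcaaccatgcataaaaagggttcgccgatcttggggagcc
CXCL8: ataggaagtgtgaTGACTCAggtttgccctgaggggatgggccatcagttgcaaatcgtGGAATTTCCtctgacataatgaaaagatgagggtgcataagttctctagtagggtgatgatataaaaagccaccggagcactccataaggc
CXCL10: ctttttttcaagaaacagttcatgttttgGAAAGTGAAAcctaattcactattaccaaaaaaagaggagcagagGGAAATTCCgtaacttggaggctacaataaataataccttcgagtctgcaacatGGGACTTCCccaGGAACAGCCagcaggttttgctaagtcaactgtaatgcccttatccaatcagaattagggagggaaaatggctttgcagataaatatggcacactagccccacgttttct
CXCL11: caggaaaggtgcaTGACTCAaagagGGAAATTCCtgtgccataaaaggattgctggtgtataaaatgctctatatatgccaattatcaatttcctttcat

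The NF-kB type letters were found in the 250 bases upstream of all 6 genes, and in 17.1% of the 35116 windows of that length in the table. CXCL1, CXCL2 and CXCL3 each held them at 2 positions, CXCL10 at 3, and CXCL8 and CXCL11 at 1. In CXCL1, CXCL2 and CXCL3 both 9-letter matches were the same, GGAATTTCC followed by GGGCTTTCC. AP-1 letters stood upstream of CXCL8 and CXCL11 (6.57% of all windows), and the interferon type letters upstream of CXCL10 alone among the 6 (3.02% of all windows). GGAATTTCC and GGAAATTCC match on both strands at once and were counted once, and no matches of different motifs overlapped. A match describes letters and does not show that a factor binds there.

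An array had 19767 to 21952 of its 47323 probes above background (detection p below 0.05). Within an arm, arrays correlated across probes at 0.985 in COMBO, 0.917 to 0.927 in PLX4720, 0.955 to 0.986 in bevacizumab and 0.986 to 0.987 in vehicle. PLX4720 1 lay apart from its arm on the first principal component (117, against 29.5 and 16.9), and PLX4720 3 and bevacizumab 1 lay apart from theirs on the second (-88.4 and -52.9). Counts without these arrays are given below. A list of stress and early-response genes (such as FOS, EGR1 and HSPA1A), which can respond to sample handling, was also read. On PLX4720 2 its median was 1.18 log2 units above the vehicle mean, against -0.33 to 0.17 on the other arrays. The cause was not tested. Of the melanoma markers, MLANA, TYR, TYRP1 and S100B were not detected on any array, PMEL was on 1, and SOX10 and MITF were on all 11.

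Of the 12 chemokine probes, 11 were detected on at least 1 array and tested. ILMN_2067890 of CXCL11 and ILMN_1773352 of CCL5 were above background only on arrays with the BRAF inhibitor. They entered the test through those arrays, so the filter partly set their direction in the counts below. Levels are log2 intensities after background correction and quantile normalization, and levels of different probes cannot be set against each other. A probe was called at an adjusted p below 0.05 (limma, Benjamini-Hochberg over all 20638 probes tested). In tumour pieces, a change in the number of cells of one type and a change in RNA per cell cannot be told apart.

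In PLX4720 tumours 5 of the 11 tested chemokine probes rose above vehicle, those of CXCL1, CXCL8 (1 of 2), CXCL10, CCL2 and CCL5 (1 of 2), where 1.26% of all probes tested were called higher. No chemokine probe was called lower, where 1.17% of all probes were. An unadjusted p below 0.05 was reached by 8 of 11, against 16.5% of all probes. In COMBO, CXCL1 and CXCL10 rose above vehicle, 2 of 11, where 0.0872% of all probes were called higher. None was called lower (0.00969% of all probes), and 9 of 11 had an unadjusted p below 0.05 (4.95% of all probes). No chemokine probe was called in bevacizumab over vehicle. At the looser limits stated in the methods (a log2 difference of at least 1 with an unadjusted p below 0.01), 8 of 11 passed in PLX4720, where 5.33% of all probes did, and 7 of 11 in COMBO, where 1.45% did. The plot of levels by arm shows every array.

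**Figure D1:**
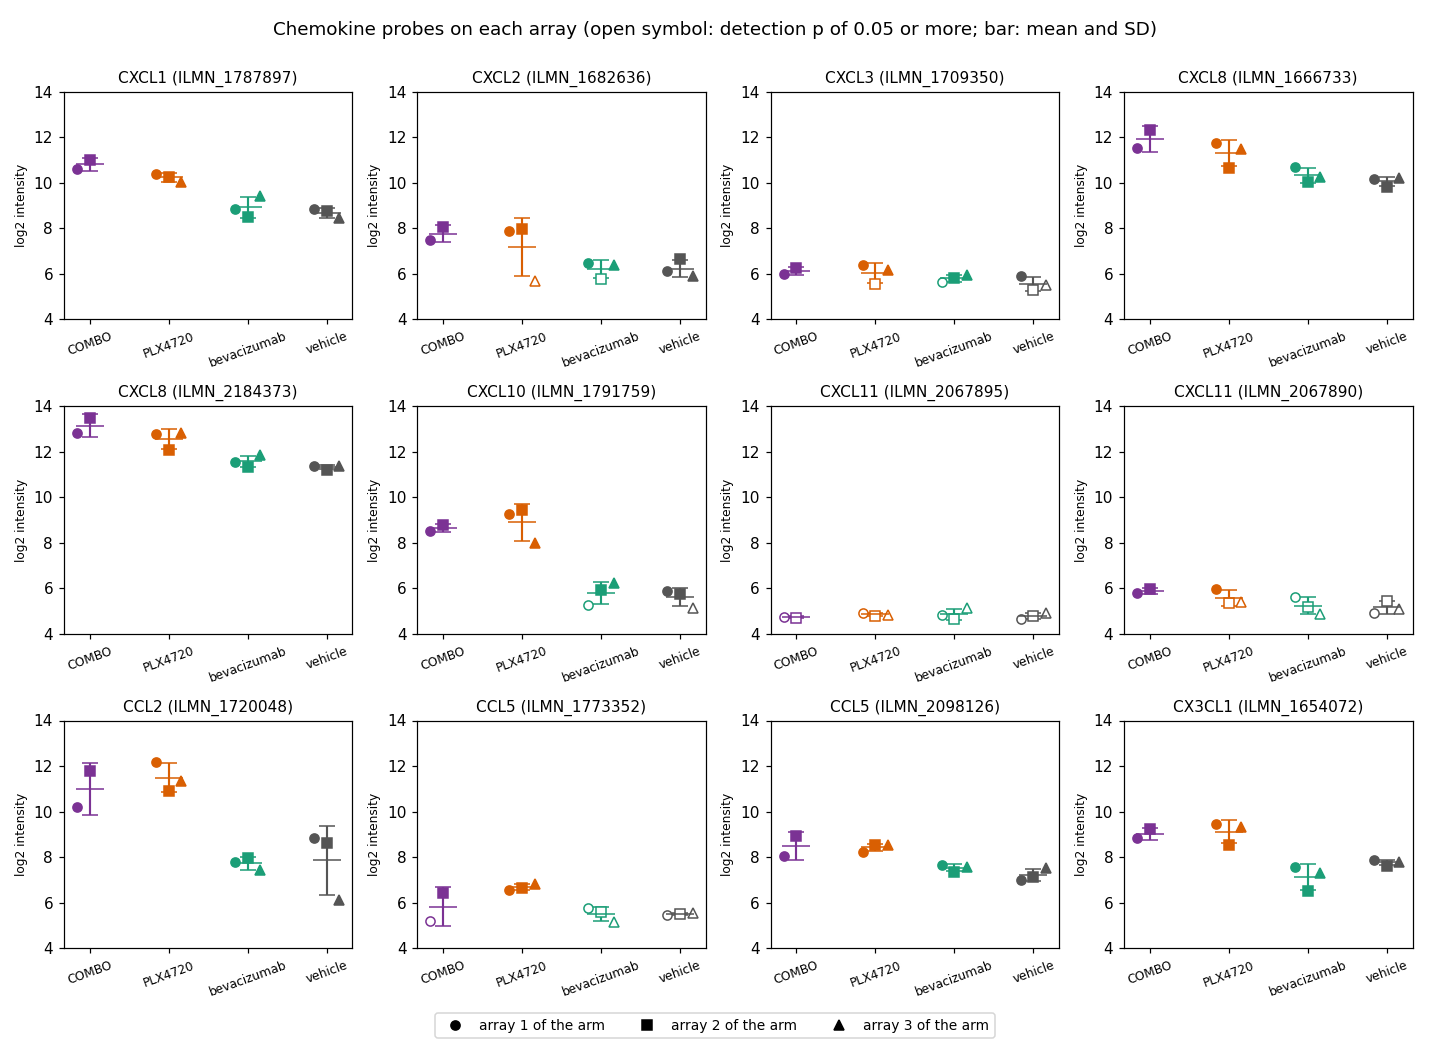
Log2 intensity of each of the 12 chemokine probes (y axis) on each array, by arm (x axis: COMBO, PLX4720, bevacizumab, vehicle). Points are arrays, open points were not above background, and bars give the arm mean and SD. CXCL10 sits at 7.98 to 9.46 in the COMBO and PLX4720 arms and at 5.15 to 6.21 in the bevacizumab and vehicle arms.

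Among the neutrophil attractants, CXCL1 (ILMN_1787897) stood at 10.60 and 11.01 in COMBO, 10.40, 10.27 and 10.02 in PLX4720, 8.85, 8.49 and 9.42 in bevacizumab, and 8.87, 8.75 and 8.45 in vehicle. All 5 arrays with the BRAF inhibitor were above all 6 without it. The level rose by 1.54 ± 0.27 log2 units (SE) in PLX4720 over vehicle, a 2.91-fold difference (adjusted p = 0.0179), and by 2.12 ± 0.30 in COMBO over vehicle, a 4.34-fold difference (adjusted p = 0.0357). Both COMBO arrays were above every PLX4720 array, yet that difference of 0.57 (95% interval -0.09 to 1.24) did not pass (adjusted p = 0.653). CXCL1 was no longer called in PLX4720 when vehicle 1, vehicle 2, vehicle 3 or PLX4720 1 was left out (log2 1.42 to 1.63, adjusted p = 0.0555 to 0.111).

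CXCL8, also called interleukin-8, was read by a pair of probes. The brighter (ILMN_2184373) gave 12.80 and 13.49 in COMBO, 12.79, 12.06 and 12.80 in PLX4720, 11.57, 11.34 and 11.83 in bevacizumab, and 11.37, 11.21 and 11.35 in vehicle. The dimmer (ILMN_1666733) gave 11.53 and 12.33 in COMBO, 11.75, 10.65 and 11.47 in PLX4720, 10.71, 10.05 and 10.25 in bevacizumab, and 10.16, 9.83 and 10.20 in vehicle. On both, COMBO and PLX4720 arrays lay above all vehicle arrays, PLX4720 2 was the lowest of its arm, and the probes moved together over the 11 arrays (Pearson r 0.972, a description). In PLX4720 over vehicle the brighter probe rose by 1.24 ± 0.28 (2.36-fold, adjusted p = 0.0429), while the dimmer differed by 1.23 ± 0.33 and did not pass (adjusted p = 0.083). In COMBO over vehicle the differences were 1.84 ± 0.31 (adjusted p = 0.061) and 1.86 ± 0.37 (adjusted p = 0.109). The CXCL8 call was the least firm, since leaving out any 1 of the 11 arrays other than PLX4720 2 ended it (log2 1.11 to 1.27, adjusted p = 0.0531 to 0.18). Without PLX4720 2, the array with the raised stress and early-response genes, the dimmer probe passed in PLX4720 (log2 1.55, adjusted p = 0.0149). Without any one PLX4720 array the brighter probe passed in COMBO over vehicle (adjusted p = 0.0238 to 0.0479), and without PLX4720 2 the dimmer probe did so too (adjusted p = 0.0467).

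CXCL2 and CXCL3, whose proteins are close relatives of CXCL1, were dimmer. CXCL2 (ILMN_1682636) stood at 7.50 and 8.04 in COMBO, 7.87, 7.95 and 5.70 in PLX4720, 6.50, 5.78 and 6.40 in bevacizumab, and 6.12, 6.65 and 5.91 in vehicle. PLX4720 3, an array that stood apart, was not above background for CXCL2 and was the lowest of all 11. The difference of PLX4720 from vehicle was 0.95 ± 0.52 (adjusted p = 0.407), and 1.68 (adjusted p = 0.0167) without PLX4720 3. In COMBO over vehicle it was 1.54 ± 0.58 (adjusted p = 0.799), with no overlap of arrays. CXCL3 (ILMN_1709350) was above background on 7 of 11 arrays and ranged from 5.29 to 6.40, with differences from vehicle of 0.56 ± 0.30 in COMBO (adjusted p = 1) and 0.48 ± 0.27 in PLX4720 (adjusted p = 0.41). Whether the CXCL1, CXCL2 and CXCL3 probes also read one another's transcripts was not tested.

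CXCL10, a ligand of CXCR3, gave the most stable call. Its probe (ILMN_1791759) stood at 8.51 and 8.76 in COMBO, 9.27, 9.46 and 7.98 in PLX4720, 5.27, 5.92 and 6.21 in bevacizumab, and 5.90, 5.74 and 5.15 in vehicle. The arms with the BRAF inhibitor did not overlap with those without it, and 1 bevacizumab and 1 vehicle array were not above background. CXCL10 rose by 3.30 ± 0.40 log2 units in PLX4720 over vehicle (9.87-fold, adjusted p = 0.00328) and by 3.04 ± 0.44 in COMBO over vehicle (8.22-fold, adjusted p = 0.0357). The PLX4720 call held in all 26 alternative settings, with adjusted p at most 0.0427. Its size depended on the background, since the vehicle arrays lay near it: the log2 difference was between 1.83 and 3.76 over those settings, and lowest with no background correction. The COMBO difference was 1.61 with no background correction and 1.63 in the authors' table, and did not pass in either (adjusted p = 0.109 and 0.0816).

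CXCL11, a further CXCR3 ligand, was near or below background. ILMN_2067895 was not detected on any array. ILMN_2067890 was above background on both COMBO arrays (5.79 and 5.98), on PLX4720 1 (5.97) but not PLX4720 2 and 3 (5.34 and 5.38), and on no bevacizumab array (4.89 to 5.63) or vehicle array (4.93 to 5.46). The COMBO mean was at least 1.16-fold above the vehicle mean, a bound set by the lowest detected signal of the vehicle arrays that leaves out sampling error. Neither COMBO (adjusted p = 0.924) nor PLX4720 (adjusted p = 0.50) passed. CXCL10, its neighbour on chromosome 4, was called in both arms.

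For the monocyte attractant CCL2 (ILMN_1720048) the levels were 10.19 and 11.78 in COMBO, 12.17, 10.92 and 11.36 in PLX4720, 7.80, 7.96 and 7.42 in bevacizumab, and 8.85, 8.63 and 6.12 in vehicle. Every array with the BRAF inhibitor was above every array without it, and vehicle 3 was the lowest of all. CCL2 rose by 3.61 ± 0.67 in PLX4720 over vehicle (12.2-fold, adjusted p = 0.0232). In COMBO the difference of 3.12 ± 0.74 (95% interval 1.48 to 4.76) did not pass (adjusted p = 0.268). The PLX4720 call was lost without vehicle 2 (log2 3.99, adjusted p = 0.0655), vehicle 3 (2.74, adjusted p = 0.053) or PLX4720 1 (3.27, adjusted p = 0.0753). The SD within the vehicle arm was 1.52, against 0.28 in bevacizumab.

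CCL5 was read by a pair of probes. ILMN_2098126 stood at 8.04 and 8.92 in COMBO, 8.23, 8.53 and 8.53 in PLX4720, 7.65, 7.35 and 7.58 in bevacizumab, and 7.0, 7.12 and 7.53 in vehicle. It rose by 1.21 ± 0.26 in PLX4720 over vehicle (2.32-fold, adjusted p = 0.0404) and differed by 1.27 ± 0.30 in COMBO (adjusted p = 0.243). With no background correction the PLX4720 difference was 0.77 on the log2 scale and still passed (adjusted p = 0.049). The PLX4720 call was lost without vehicle 1, 2 or 3, PLX4720 1 or 3, or bevacizumab 2 or 3 (log2 1.11 to 1.37, adjusted p = 0.0562 to 0.171).
ILMN_1773352 was above background on all 3 PLX4720 arrays (6.57, 6.67 and 6.83) and on COMBO 2 (6.42), and on no other array. COMBO 1 stood at 5.21, bevacizumab at 5.16 to 5.76 and vehicle at 5.47 to 5.55. By arm means PLX4720 was at least 2.03-fold higher than vehicle on this probe, and the difference did not pass (adjusted p = 0.0676). Both CCL5 probes were higher on every PLX4720 array than on any vehicle array, but they differed on COMBO 1, where ILMN_2098126 was above all vehicle arrays and ILMN_1773352 below them (Pearson r between them 0.774 over 11 arrays, a description). Leaving out either COMBO array, which narrows the spread shared by the fit, let ILMN_1773352 pass in PLX4720 (adjusted p = 0.0423).

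CX3CL1 (ILMN_1654072), the surface-held ligand of CX3CR1, stood at 8.85 and 9.22 in COMBO, 9.48, 8.54 and 9.32 in PLX4720, 7.59, 6.51 and 7.29 in bevacizumab, and 7.87, 7.62 and 7.81 in vehicle. COMBO and PLX4720 arrays were all above the vehicle arrays, and all bevacizumab arrays were below them. The differences from vehicle were 1.26 ± 0.36 in COMBO (adjusted p = 0.445), 1.35 ± 0.32 in PLX4720 (adjusted p = 0.0567) and -0.64 ± 0.32 in bevacizumab (adjusted p = 1). CX3CL1 passed in PLX4720 without PLX4720 2 (log2 1.63, adjusted p = 0.013) and without bevacizumab 2 (log2 1.35, adjusted p = 0.0479).

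Read over the 11 tested probes, the median difference from vehicle was 1.54 in COMBO, 1.23 in PLX4720 and 0.20 in bevacizumab, beside medians of -0.02, 0.03 and -0.03 over all probes tested. All 11 differences were positive in COMBO and in PLX4720. For ILMN_2067890 and ILMN_1773352, which the filter kept only through arrays with the BRAF inhibitor, the sign adds no support. COMBO arrays lay wholly above vehicle arrays for 10 of 11 probes (15.9% of all probes) and PLX4720 arrays for 8 of 11 (10.3% of all probes). These comparisons share the vehicle arrays. In a test for any difference among the 4 arms (moderated F test, adjusted p below 0.1), 7 of 11 probes from 6 genes passed, where 2.66% of all probes did, and the exceptions were CXCL2, CXCL3, CXCL11 and ILMN_1773352 of CCL5. The p-values measure the spread between these tumours, and the arms with 2 or 3 arrays limit the precision. Without PLX4720 1, 1 probe was called in PLX4720 over vehicle, that of CXCL10. With PLX4720 3 and bevacizumab 1 both left out, 2 probes were called in COMBO over vehicle and 4 in PLX4720 over vehicle, where the CXCL8 probe (adjusted p = 0.0607) and the CCL5 probe (adjusted p = 0.0506) no longer passed and CXCL2 did. Fitted on the arrays of the PLX4720 and vehicle arms alone, or with array weights, CXCL10 still passed in PLX4720 and the other 4 probes did not (adjusted p = 0.0671 to 0.142).

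**Figure D2:**
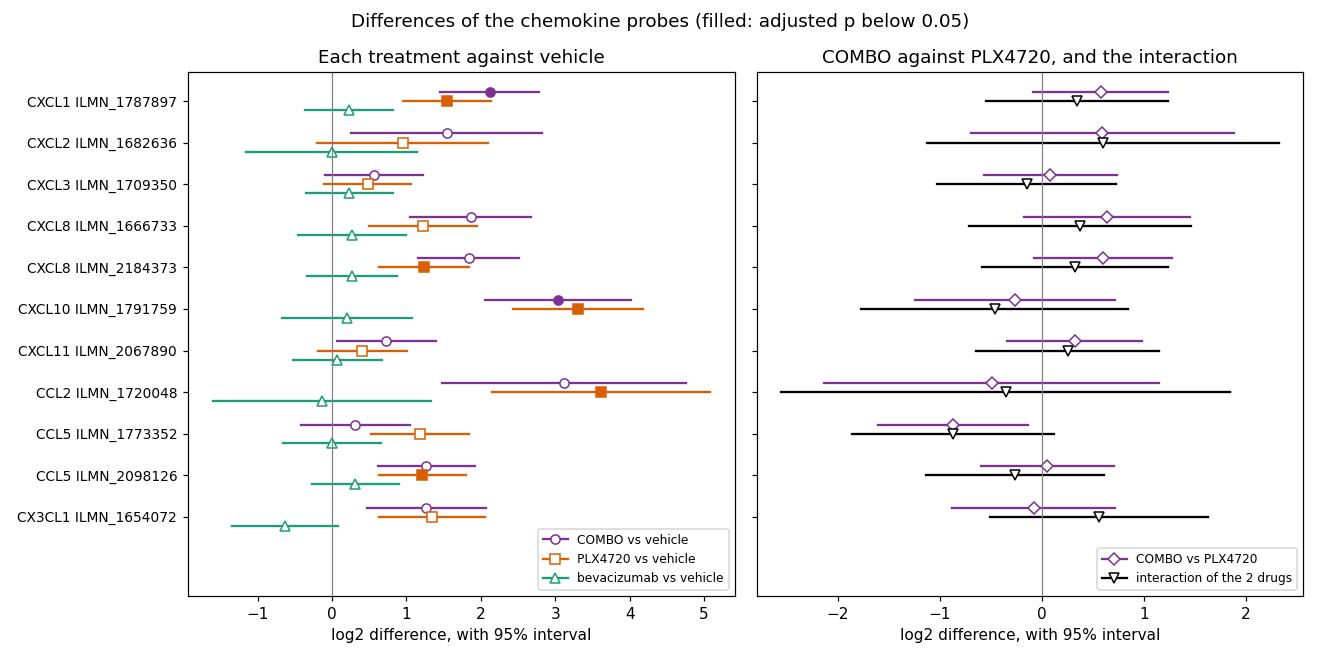
Log2 differences (x axis, with 95% intervals) of the 11 tested chemokine probes (y axis). The left panel sets COMBO, PLX4720 and bevacizumab against vehicle, the right panel shows COMBO against PLX4720 and the interaction of the drugs, and filled symbols passed at an adjusted p below 0.05. Filled symbols are 2 for COMBO, 5 for PLX4720 and 0 elsewhere.

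Whether bevacizumab changed the response to the BRAF inhibitor was asked by setting COMBO against PLX4720. None of the 11 probes passed, where 0.00485% of all probes were called (1 probe, and 585 without PLX4720 2). An unadjusted p below 0.05 was reached by 1 of 11, against 8.33% of all probes. That probe was ILMN_1773352 of CCL5, at 5.21 and 6.42 in COMBO and 6.57, 6.67 and 6.83 in PLX4720, a difference of -0.87 ± 0.33 (adjusted p = 0.562), whereas the other CCL5 probe differed by 0.05 (95% interval -0.60 to 0.70). The differences were 0.60 (-0.08 to 1.27) and 0.64 (-0.17 to 1.45) for the CXCL8 probes, -0.26 (-1.24 to 0.71) for CXCL10, -0.49 (-2.13 to 1.14) for CCL2 and -0.08 (-0.88 to 0.72) for CX3CL1. Arrays of COMBO and PLX4720 overlapped for all probes but CXCL1, higher in COMBO (9.87% of all probes did so), and ILMN_1773352, lower in COMBO (10.9%). With 2 COMBO arrays, the intervals of CXCL1, CXCL2, both CXCL8 probes, CXCL10, CCL2 and ILMN_1773352 held differences of over 1 log2 unit.

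Relative to bevacizumab alone, CXCL1 rose in COMBO by 1.89 ± 0.30 (adjusted p = 0.0294) and CXCL10 by 2.84 ± 0.44 (adjusted p = 0.0275), 2 of 11 probes, where 0.208% of all probes were called higher and 0.0921% lower. Arrays of COMBO lay above all bevacizumab arrays for 10 of 11 probes (14.8% of all probes), 8 of 11 had an unadjusted p below 0.05 (7.05%), and 6 of 11 passed at the methods' limits (2.2%). CX3CL1 differed by 1.90 ± 0.36 (adjusted p = 0.0711), the brighter CXCL8 probe by 1.56 ± 0.31 (adjusted p = 0.0813) and CCL2 by 3.26 ± 0.74 (adjusted p = 0.144). The COMBO calls rest on few arrays. Over vehicle, CXCL1 was lost without COMBO 1 or 2, bevacizumab 1 or 2, or any vehicle array (log2 1.91 to 2.32, adjusted p = 0.0571 to 0.415), and CXCL10 without any COMBO, bevacizumab or vehicle array (log2 2.82 to 3.19, adjusted p = 0.0586 to 0.414). Over bevacizumab, CXCL1 was lost without the same 7 arrays (adjusted p = 0.0523 to 0.35) and CXCL10 without either COMBO array, any bevacizumab array, or vehicle 1 or 2 (adjusted p = 0.0517 to 0.296).
Leaving out PLX4720 2 or 3 added the brighter CXCL8 probe (adjusted p = 0.0312 and 0.0468) and CX3CL1 (adjusted p = 0.0289 and 0.0465) over bevacizumab, and leaving out vehicle 3 added CCL2 (adjusted p = 0.0344).

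In bevacizumab over vehicle no chemokine probe was called, as for all probes tested (0%), and none had an unadjusted p below 0.05, against 2.62% of all probes. The authors' normalized table also gave 0 calls. Bevacizumab arrays lay wholly apart from vehicle for CX3CL1 only, all lower (6.53% of all probes). The interaction (COMBO minus PLX4720 minus bevacizumab plus vehicle) was called for none of 11 probes, 0% of all probes (210 probes without PLX4720 2), and none had an unadjusted p below 0.05, against 6.62% of all probes. Its estimates ran from -0.87 ± 0.45 for ILMN_1773352 of CCL5 to 0.60 ± 0.78 for CXCL2, so departures from additivity of that size were within the error.

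**Figure D3:**
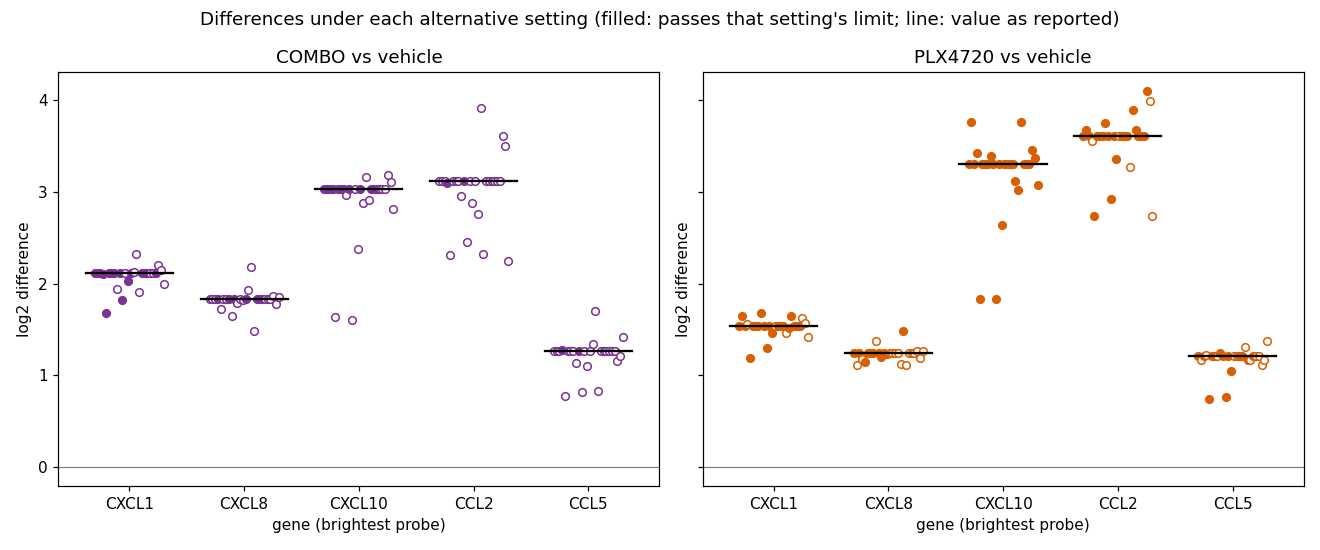
Log2 difference from vehicle (y axis) of the brightest probe of 5 chemokine genes (x axis) in COMBO and in PLX4720, under each of the 26 alternative settings (points, filled where that setting's limit was passed). The black line is the value as reported. All points are above 0, CXCL10 in PLX4720 is filled throughout, and CXCL8 in PLX4720 is filled in 11 of 26.

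The other chemokines tested had no shared direction, and several were above background on few arrays, which limits what their median can show. Of 38 further chemokine genes, 36 had a probe and 17 were tested, with a median difference of -0.15 in COMBO and -0.09 in PLX4720 over vehicle. Counts in this list and those below stand beside 1.26% of all probes called higher and 1.17% lower in PLX4720. In COMBO these shares were 0.0872% and 0.00969%. A single call in a short list is not a result about the list. In PLX4720 over vehicle CCL20 differed by 0.96 (adjusted p = 0.139) and CXCL14 by -1.38 (adjusted p = 0.134), and neither passed. CXCL16, a ligand of CXCR6 that also occurs in a membrane-bound form, was the only one called, at 9.5 and 9.53 in COMBO, 10.38, 9.99 and 10.10 in PLX4720, 9.61, 8.42 and 8.40 in bevacizumab, and 8.61, 8.80 and 8.27 in vehicle (log2 1.60 ± 0.32 in PLX4720 over vehicle, adjusted p = 0.0316). Between CXCL8 and CXCL2 on chromosome 4, CXCL5, PF4 and PF4V1 were detected on no array and CXCL6 on 1 vehicle array. PPBP, a platelet chemokine, averaged 7.12 in COMBO, 7.28 in PLX4720, 7.36 in bevacizumab and 7.44 in vehicle. CXCL9, the remaining interferon-induced ligand of CXCR3, was not detected on any array.

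CXCR2, CXCR3, CCR2 and CX3CR1, the receptors named above for these ligands, were at or near background on the human arrays. CXCR3 and ACKR1, a scavenger receptor, were detected on no array, CXCR2 on 1 bevacizumab array, CX3CR1 on 1 COMBO array, and CCR2 on 1 COMBO, 1 PLX4720 and 1 vehicle array. CCR6, the receptor of CCL20, has 3 probes, of which the brightest was detected on all 11 arrays (means of 15.62 in COMBO, 14.98 in PLX4720, 15.14 in bevacizumab and 15.08 in vehicle). Its other probes are not given here, and whether the brightest reads CCR6 alone was not tested. CCR10 was detected on 7 arrays. Of 13 receptors tested, CCRL2, an atypical receptor that binds chemerin without signalling, was called. It was undetected in COMBO (5.48 and 5.63) and PLX4720 (5.16, 4.85 and 5.65), and stood at 6.51, 5.67 and 6.06 in bevacizumab and 6.64, 7.03 and 6.52 in vehicle. CCRL2 entered the test only through arrays without the BRAF inhibitor, so the filter partly set its direction. By arm means CCRL2 was at least 1.92-fold lower in PLX4720 than in vehicle (adjusted p = 0.0263). In COMBO it was at least 2.05-fold lower and did not pass (adjusted p = 0.401). These bounds follow the lowest detected signal of each array and do not rank the arms. The receptors on infiltrating leukocytes of these mice are mouse transcripts, and mouse arrays were not analysed here.

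Among 20 tested genes that induce or form the NF-kB pathway, 1 was called in PLX4720 over vehicle, where the list had a median difference of 0.29. TNFAIP3, which encodes an inhibitor of NF-kB signalling and is itself an NF-kB target, stood at 8.07 and 8.90 in COMBO, 10.19, 8.39 and 8.79 in PLX4720, 7.60, 7.10 and 7.78 in bevacizumab, and 7.09, 7.45 and 7.15 in vehicle. It rose in PLX4720 (log2 1.89 ± 0.42, adjusted p = 0.044) and did not pass in COMBO (adjusted p = 0.799). The inducer TNF was not detected on any array, which does not show that it was absent. Elsewhere in this list IL6 was detected on all 11 arrays, IL1B on 6 and IL1A on 1. Of 21 tested interferon inducers and pathway genes, 3 rose in PLX4720 (list median 0.40): DDX58 (log2 2.40 ± 0.52, adjusted p = 0.04) and IFIH1 (1.70 ± 0.37, adjusted p = 0.0419), which encode the RNA sensors RIG-I and MDA5, and USP18 (1.80 ± 0.41, adjusted p = 0.0451), which restrains interferon signalling. In COMBO over vehicle the same genes differed by 1.75, 1.59 and 2.30 and did not pass (adjusted p = 0.629, 0.359 and 0.109). IFNB1 and IFNG, which encode interferons, were not detected on any array. Of 12 tested proteases that trim chemokines, MMP13, a collagenase, was called, at 6.57 and 8.77 in COMBO and 8.91, 7.26 and 7.46 in PLX4720, and undetected in bevacizumab and vehicle. MMP13 entered the test only through arrays with the BRAF inhibitor, so the filter partly set its direction. By arm means MMP13 was at least 4.63-fold higher in PLX4720 than in vehicle (adjusted p = 0.0362). In COMBO it was at least 4.01-fold higher and did not pass (adjusted p = 0.325).

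Markers of other cells were read beside these results, since a xenograft holds mouse stroma. Of 12 tested fibroblast markers, 7 rose in PLX4720 (1.26% of all probes tested) and 1, POSTN, in COMBO (0.0872%). The median over the list was 0.94 and 1.41 above the vehicle mean on the COMBO arrays and 2.31, 1.85 and 1.35 on the PLX4720 arrays. It was below that mean on all bevacizumab arrays (-0.53 to -0.42). The collagen gene COL3A1 stood at 11.04 and 12.44 in COMBO, 14.37, 12.90 and 11.82 in PLX4720, 5.40, 5.82 and 5.27 in bevacizumab, and 9.20, 7.49 and 7.39 in vehicle. POSTN, which encodes the matrix protein periostin, rose by 3.84 ± 0.38 in PLX4720 (adjusted p = 0.00164) and by 3.00 ± 0.42 in COMBO (adjusted p = 0.0357). In PLX4720 COL3A1 rose by 5.01 log2 units (adjusted p = 0.00481), LUM, a collagen-binding proteoglycan, by 3.29 (adjusted p = 0.00299) and TAGLN, a contractile protein gene, by 2.04 (adjusted p = 0.00293). The summed level of the list was 15.74 to 16.02 log2 units in COMBO, 15.92 to 16.30 in PLX4720, 15.19 to 15.81 in bevacizumab and 15.44 to 15.93 in vehicle, so that COMBO and PLX4720 arrays overlapped with vehicle arrays. The undetected member was THY1. The only human cells in these grafts were A375 cells, and the stroma was of mouse origin. Whether the fibroblast-type signals came from A375 cells or from mouse RNA read by the human probes was not tested. Nor was the part of mouse fibroblast transcripts in the chemokine values.

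Leukocyte markers differed, with 7 to 10 of the 17 tested genes above background on each array. On their most often detected probe, CD68, ITGB2 and CSF1R were above background on all 11 arrays, CD14 on 9 and CD3D on 8. PTPRC, the pan-leukocyte marker CD45, and CD3E, CD8A, CD4, TYROBP and S100A9 were detected on no array, and the list's median stayed between -0.22 and 0.23 of the vehicle mean on every array. Of 17 tested, AIF1, a macrophage-associated calcium-binding protein, was called, at 10.91 and 11.08 in COMBO, 10.93, 11.08 and 10.63 in PLX4720, 10.12, 9.86 and 9.58 in bevacizumab, and 9.73, 8.61 and 8.61 in vehicle (adjusted p = 0.0138 in PLX4720 and 0.0638 in COMBO over vehicle). The part of leukocyte transcripts in the chemokine values was not tested. The summed level ran from 12.49 to 12.55 in COMBO, 12.16 to 12.69 in PLX4720, 12.71 to 13.14 in bevacizumab and 12.72 to 12.90 in vehicle. Such a sum follows the brightest members of a list, so it does not count leukocytes. Of 9 tested endothelial and pericyte markers, the pericyte gene RGS5 rose in PLX4720 (log2 2.82 ± 0.60, adjusted p = 0.0375). The endothelial genes CDH5, VWF, KDR and CLDN5 were detected on no array. PECAM1, ESAM, ENG and CSPG4 of the same list were detected on all 11, ROBO4 on 10, TIE1 on 9, TEK on 2 and EMCN on 1. That list summed to 11.78 to 11.96 in COMBO, 11.73 to 12.86 in PLX4720, 11.67 to 12.26 in bevacizumab and 11.85 to 12.20 in vehicle. Of 9 tested melanoma markers, MCAM, an adhesion molecule, rose in PLX4720 (log2 1.22 ± 0.26, adjusted p = 0.0388). Of the 15 stress and early-response genes, ATF3, a stress-induced transcription factor, fell in PLX4720 by 1.48 on the log2 scale (adjusted p = 0.0485).

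**Figure D4:**
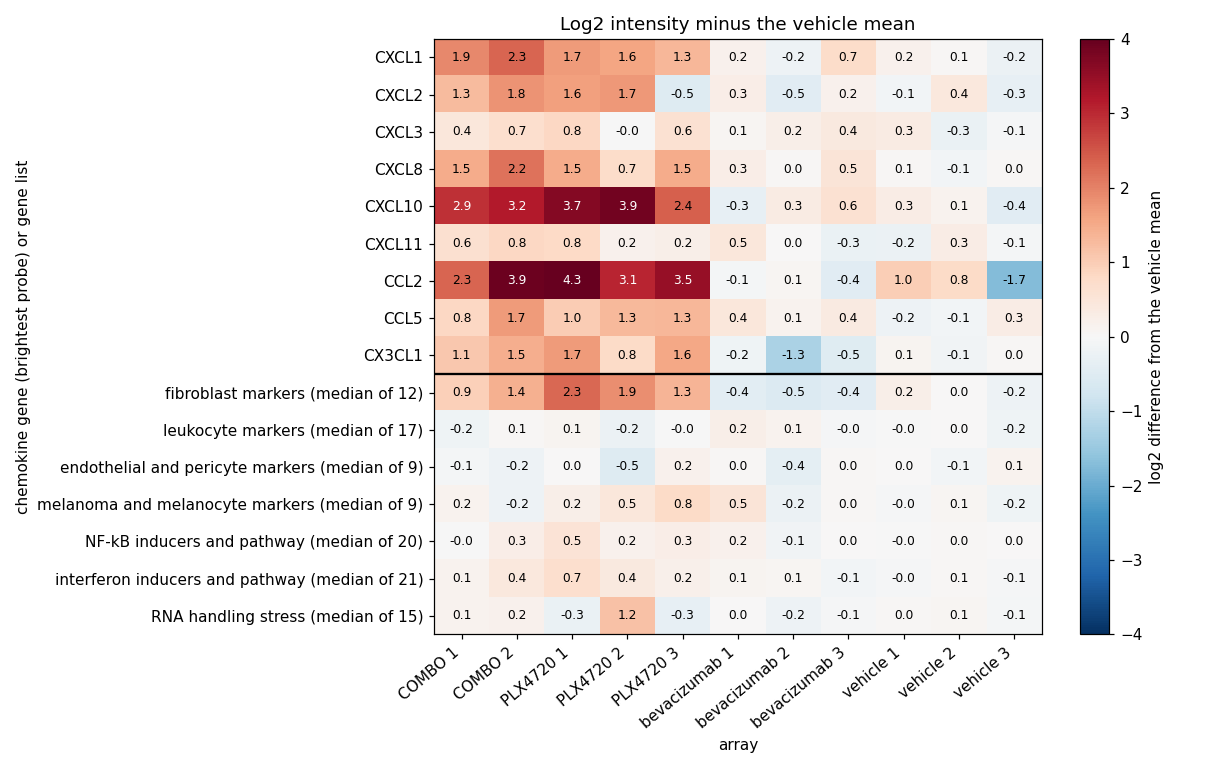
Log2 intensity minus the vehicle mean (colour and number) for the brightest probe of each chemokine gene and for the median of each gene list (rows), on each of the 11 arrays (columns). The chemokine and fibroblast rows are above 0 on nearly all COMBO and PLX4720 arrays, and the leukocyte row stays between -0.22 and 0.23.

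The genes whose levels ran most like those of CXCL8 and CXCL10 over the 11 arrays were found among 14877 genes, as a description that rests on 4 arms rather than on independent points. Next to CXCL8 were COLQ (Pearson r 0.944), CHI3L1 (0.941), HAS3 (0.925), UTS2 (0.914) and RCAN2 (0.904). CHI3L1 encodes the secreted glycoprotein YKL-40 and HAS3 a hyaluronan synthase. Next to CXCL10 were SKIC8 (0.978), ANGPTL7 (0.971), EPSTI1 (0.970), PARP9 (0.969) and GASK1B (0.968), of which EPSTI1 and PARP9 are known interferon-induced genes. Among the chemokines themselves, CXCL1 ran closest to CXCL8 (0.943) and to CXCL10 (0.930), and CXCL2 and CXCL3 were the least alike (0.295).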

How the data were processed

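RNA of A375 xenografts was hybridised by the authors to human Illumina bead arrays, 1 array per sample, 11 in all. Per the labels, GenomeStudio 2011.01 made the deposited tables. The main one holds linear, not normalized intensity values with a detection p-value from negative control beads. A second deposited table holds the authors' cubic spline normalized intensity values (linear, uncentred, median 155.3 on each array) and served as an alternative. No genome build for the probes is given in the sources used here.

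Probes were named from the platform annotation with current symbols: 30113 of 47323 probes had 1 symbol, 8 several and 17202 none. Background was removed from the deposited intensities with normexp (limma 3.58.1, R 4.3.3), taking the negative-control moments from the detection p-values and adding an offset of 16. Quantile normalization and log2 followed. Probes with a detection p below 0.05 on at least 1 array and 1 symbol were kept (20638). A linear model of the 4 arms was fitted to all 11 arrays, with moderated two-sided tests. The detection rule and the looser limits follow the methods. Where a probe was undetected on every array of a group, the fold is a bound: on each dim array the probe was given the lowest detected signal, or its own if higher, before the means were compared. It bounds the ratio of these arm means only and holds no sampling error.

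Other background corrections, scalings, filters, limits, weights, a replicate block and fits without single arrays were tried. The fit was first tested on simulated data. The members, the lists and the tests were chosen with earlier results of these data known. All chemokine probes are named. From every other list, called members in PLX4720 or COMBO against vehicle are named, at most 4 with the smallest p, and CXCR2, CXCR3, CCR2, CX3CR1 and ACKR1 were always looked up. Other genes named as undetected or as chromosome 4 neighbours (CXCL6, PPBP) were added after their values were seen. CCL20, CXCL14, CCR6, CCR10, PMEL, SOX10 and MITF were also named outside this rule, with their values known. The same holds for IL6, IL1A, IL1B and for the leukocyte, endothelial and pericyte markers named only by the arrays that detected them. Plots were made in Python 3.11.15 (matplotlib 3.10.9).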

Additional observations from a re-analysis of the deposited data

How the results depend on the processing

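The alternatives were no background correction, the authors' normalized table, median scaling, an offset of 50, no detection filter or a stricter one, 1 probe per gene, a robust trended fit, only the arrays compared, array weights, the replicate number as a block, the methods' limits, each array left out, and PLX4720 3 and bevacizumab 1 left out together. In PLX4720 over vehicle, 5 chemokine probes passed, and 1 with only the arrays compared, 1 with array weights, 3 with the replicate block, 8 at the methods' limits and 1 to 7 with an array left out. In COMBO over vehicle, 2 passed, and 1 with no background correction, the authors' table or an offset of 50, 0 with median scaling, no filter or the replicate block, 6 with only the arrays compared, 8 with array weights, 7 at the methods' limits and 0 to 4 with an array left out. In COMBO over bevacizumab, 2 passed, and 1 with no background correction, the authors' table, median scaling, no filter or PLX4720 3 and bevacizumab 1 out, 0 with the replicate block, 9 with array weights, 6 at the methods' limits and 0 to 4 with an array left out. The test among 4 arms passed 7 probes, and 4 to 8 with an array left out. Of all 20638 probes it passed 548, and 1573 with array weights. COMBO over bevacizumab called 62 of all probes, and 16 with the replicate block, 934 with array weights and 455 at the methods' limits. Over all probes tested, 502 were called in PLX4720 over vehicle (52 with only the arrays compared, 271 with array weights, 335 with the block, 72 to 1461 with an array left out, 1470 with both out) and 20 in COMBO over vehicle (286, 479 and 5 in the first 3 of these settings, 1 to 86 with an array left out). Arrays with the same replicate number did not deviate together (correlations of -0.444 to 0.239). With so few arrays per arm this check cannot exclude that the numbers pair the tumours, and the block was kept as an alternative. The median difference over all probes was -0.10 in COMBO, 0.10 in PLX4720 and -0.13 in bevacizumab over vehicle under median scaling, against -0.02, 0.03 and -0.03 under quantile normalization, and in COMBO over PLX4720 it was -0.19 against -0.04.

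No called difference changed sign, but 45 values of differences that were not called did, and the cause was not tested. In bevacizumab over vehicle these were ILMN_1773352 of CCL5 (-0.0069 with no background correction, -0.020 with median scaling, -0.21 with array weights, -0.12 with PLX4720 3 and bevacizumab 1 out), CXCL11 (-0.15 with weights, -0.13 with both out) and CXCL2 (0.0025 in the authors' table, 0.045 with weights). In COMBO over PLX4720 they were ILMN_2098126 of CCL5 (-0.11 with median scaling), CX3CL1 (0.022 with both out) and CXCL2 (-0.14 with both out, and -0.0061 in the interaction). Leaving out 1 array, the log2 difference of bevacizumab over vehicle crossed 0 for CCL2 (-1.01 to 0.35), ILMN_1773352 (-0.12 to 0.17), CXCL1 (-0.017 to 0.44), CXCL10 (-0.023 to 0.47), CXCL11 (-0.13 to 0.24) and CXCL2 (-0.16 to 0.22). That of COMBO over PLX4720 did so for CCL2 (-1.29 to 0.30), ILMN_2098126 (-0.39 to 0.49), CX3CL1 (-0.37 to 0.10), CXCL10 (-0.72 to 0.015), CXCL2 (-0.14 to 0.98) and CXCL3 (-0.16 to 0.26). The interaction did so for CCL2 (-1.15 to 0.52), ILMN_2098126 (-0.70 to 0.18), CXCL2 (-0.14 to 0.98), CXCL3 (-0.40 to 0.029) and the CXCL8 probes ILMN_1666733 (-0.032 to 0.77) and ILMN_2184373 (-0.021 to 0.67). ILMN_1773352 ran from -0.29 to 0.92 in COMBO over vehicle and from -0.29 to 0.92 over bevacizumab. CXCL3, CXCL11 and ILMN_1773352 lay close to background, where the correction sets the size of a difference.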
